A study of Mus musculus with 9 samples.

Results

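The Slc25 genes encode a family of carriers, most of them in the mitochondrial inner membrane, and 46 genes whose annotated symbol starts with Slc25a were found among the 19858 genes with a probe set of their own on the array. They were taken by symbol alone, from probe sets annotated to a single gene and with the brightest probe set where a gene had several; the family itself was picked with earlier results of these data known. The 46 genes had 50 such probe sets, and all 46 matched a RefSeq mouse gene of the same symbol by Entrez identifier. For 38 of them the mean over all arrays was at or above a log2 level of 5.59, the 40th percentile taken over every probe set, and these 38 were tested among 13335 genes. The other 8, Slc25a2, Slc25a21, Slc25a31, Slc25a34, Slc25a41, Slc25a48, Slc25a53 and Slc25a54, fell under that level. Slc25a48 (mean 5.57) and Slc25a34 (5.48) lay just below it, and Slc25a18 (5.84) and Slc25a14 (5.87) just above. When the 8 were tested without the filter none passed in any comparison, the lowest adjusted p by limma being 0.160 for LPA against control, 0.920 for HA155 against control and 0.129 for LPA against HA155.

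Total RNA was measured on 9 Affymetrix mouse gene arrays, 1 for each of 9 primary cultures of interscapular brown fat, the heat-producing depot between the shoulder blades. All mice were male C57BL/6 animals aged 5 weeks. In every group the cultures were seeded from a digest filtered to enrich precursor cells, received insulin at 50 nM from day 1, 100 nM from day 5 and 200 nM from day 7, and were collected at about day 9. The groups were LPA (1-oleoyl lysophosphatidic acid) at 5 µM (subjects 7, 8 and 9), the autotaxin inhibitor HA155 at 2.5 µM (subjects 4, 5 and 6) and DMSO, the vehicle, as control (subjects 1, 2 and 3). Autotaxin is the secreted enzyme that makes LPA, and the series design asks which genes the enzyme and its product regulate. The design text places the treatment during differentiation and the labels put it at day 9 of culture, which leaves the duration of exposure unclear.

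Carriers of this family share a fold of repeated helices, and most move a class of solute across the inner membrane, usually by exchange: ADP for ATP, phosphate, citrate, dicarboxylates, amino acids, acylcarnitines, coenzymes or iron. They set which fuels and cofactors reach the matrix enzymes. In adipocytes, export of citrate carries acetyl units to the cytosol for fatty acid synthesis, the carnitine carrier brings acyl groups in for oxidation, and Ucp1, a relative of the carriers without the Slc25a symbol, lets protons back into the matrix of brown fat mitochondria to release heat.

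The median array intensity ran from 70.7 to 72.8, and the number of arrays, 3 per group, limits the precision. LPA arrays lay apart from all others on the first principal component of all genes, at 19.57 to 28.75 against -15.51 to -7.28 in HA155 and control arrays together. Of the named markers of brown adipocytes, Ucp1, Cidea and Dio2 had means over all arrays under the intensity filter, although the HA155 mean of Cidea, a lipid droplet protein, was 6.39, against 4.92 in control and above that level. Ucp1 read 5.26, 5.30 and 4.97 in LPA cultures, 5.29, 5.40 and 5.17 in HA155 cultures and 5.11, 5.26 and 5.28 in control, so the marker that defines thermogenic brown fat lay under the filter level in every array. The general adipocyte markers Adipoq, Fabp4, Plin1, Cidec, Pparg and Lpl all passed the filter. Values below are log2 intensity, listed for subjects 7, 8 and 9 (LPA), 4, 5 and 6 (HA155) and 1, 2 and 3 (control). Changes are differences of group means on that scale with the standard error (n = 3 cultures per group), and p-values are from limma with Benjamini-Hochberg adjustment over all 13335 genes. Rose and fell denote an adjusted p below 0.05. Summed intensities of markers are on the linear scale.

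With LPA, 16 of the 38 tested carriers fell, 4 rose and 18 did not pass. Of all genes tested 10.8% fell and 12.2% rose, 23.0% in either direction, against 42.1%, 10.5% and 52.6% of the carriers. The median change of the 38 carriers was -0.23, against 0.0052 over all genes. In 17 carriers every LPA array lay below every control array (44.7%, against 15.6% of all genes), and in 6 every LPA array lay above (15.8%, against 17.5%). Brighter probe sets were called more often in general: above a log2 level of 7.98, 11 of 19 carriers fell (57.9%, against 17.5% of all genes), and below it 5 of 19 (26.3%, against 6.07%).

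The fall went with a change in the markers of cell type. All 6 adipocyte markers fell with LPA, and their summed intensity was 18152.7 to 19043.7 in LPA arrays, against 28796.6 to 29709.9 in control. All 3 preadipocyte markers (Pdgfra, Pdgfrb and Dlk1) rose, with sums of 7112.0 to 7619.4 and 5216.6 to 5562.3. Of the 4 brown adipocyte markers tested Cox8b, Cox7a1 and Ppargc1a fell, the sum over all 7 being 481.7 to 517.4 in LPA arrays and 1099.8 to 1144.3 in control. Of the skeletal muscle markers 4 of 9 rose (Myh1, Actc1, Acta1 and Des), with sums of 1557.7 to 1734.6 and 1163.8 to 1218.2, while Myod1, Myog, Pax7, Ckm and Tnni2 did not pass. No macrophage marker passed among 3 tested, and 1 of 2 tested endothelial markers rose (Tek). The part of these shifts in the carrier values was not tested. In bulk cultures fewer adipocytes and less carrier RNA per adipocyte cannot be told apart.

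**Figure D1:**
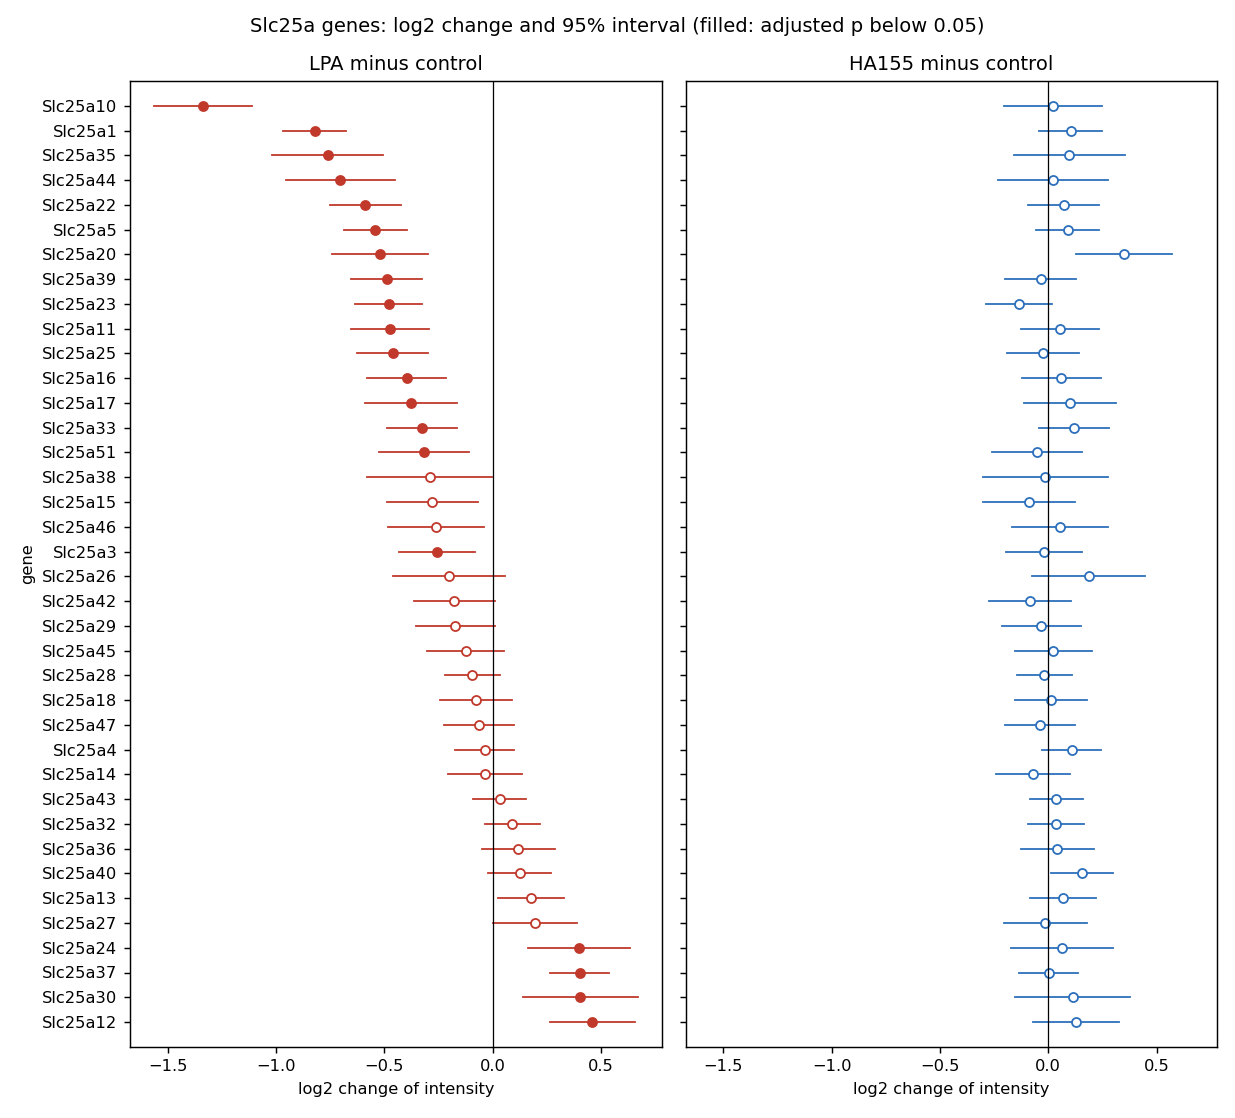
Log2 change of intensity (horizontal axis) with its 95% interval for the 38 tested Slc25a genes (rows), LPA minus control on the left and HA155 minus control on the right; filled points have an adjusted p below 0.05. The LPA changes run from -1.34 for Slc25a10 to 0.46 for Slc25a12 with 20 filled points, and the HA155 panel has none.

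The carriers of metabolites had the lowest median change of the 6 classes set here. All 4 tested members, Slc25a1, Slc25a10, Slc25a11 and Slc25a20, fell with LPA, with a median change of -0.67. These 4 were above the log2 level of 7.98, where 57.9% of carriers and 17.5% of all genes fell. The other member, the oxodicarboxylate carrier Slc25a21, was under the filter. Slc25a10 exchanges dicarboxylates such as malate and succinate for phosphate. It had 10.11, 9.72 and 10.19 in LPA cultures, 11.39, 11.29 and 11.41 in HA155 cultures and 11.33, 11.36 and 11.33 in control. Every LPA array lay more than 1 log2 unit below every other array, and the change against control was -1.34 ± 0.10 (SE; limma adjusted p = 6.11e-06), the widest of the 38. Slc25a1, which exports citrate from the matrix, had 10.68, 10.52 and 10.73 with LPA, 11.56, 11.55 and 11.59 with HA155 and 11.47, 11.51 and 11.41 in control. LPA arrays were again apart from all others, with a change against control of -0.82 ± 0.07 (SE; limma adjusted p = 8.5e-06).

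Slc25a20 imports acylcarnitines in exchange for carnitine, the step that feeds long-chain fatty acids to oxidation in the matrix. Its values were 9.28, 8.88 and 9.29 in LPA cultures, 9.98, 10.05 and 10.02 in HA155 cultures and 9.71, 9.71 and 9.58 in control, so that the 3 groups did not overlap and HA155 was the highest. The change with LPA was -0.52 ± 0.10 (SE; limma adjusted p = 0.00313). Slc25a11, the exchanger of 2-oxoglutarate and malate in the malate-aspartate shuttle, had 9.75, 9.57 and 9.80 with LPA, 10.13, 10.19 and 10.39 with HA155 and 10.21, 10.15 and 10.18 in control. LPA was below both other groups, which overlapped each other, and the change against control was -0.47 ± 0.08 (SE; limma adjusted p = 0.00147).

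The 3 groups did not overlap in Slc25a20, nor in Slc25a1, Slc25a12, Slc25a17, Slc25a23 or Slc25a35. The share of all genes with 3 separate groups was not counted. Sequence around the start site is shown for the 2 metabolite carriers with the widest falls and for Slc25a20. It is also shown for Slc25a12, the carrier that rose furthest with LPA. Each is a window of the RefSeq promoter table (build GRCm38.p6) from 250 bases before to 50 bases after the start that table uses, which for Slc25a12 is not the outermost end of the RefSeq gene, and is written 5′ to 3′ on the gene's strand, and both the genes and the motifs searched were chosen after the values were seen. Slc25a10 lies at chr11:120491587-120491886 (plus strand), Slc25a1 at chr16:17928170-17928469 (minus), Slc25a20 at chr9:108661886-108662185 (plus) and Slc25a12 at chr2:71367706-71368005 (minus). Capitals mark CACGTG, the E-box, in Slc25a1, starting 239 bases before that start, and CCGGAAG, an ETS-type sequence, in Slc25a20, starting 79 bases before it.
Slc25a10: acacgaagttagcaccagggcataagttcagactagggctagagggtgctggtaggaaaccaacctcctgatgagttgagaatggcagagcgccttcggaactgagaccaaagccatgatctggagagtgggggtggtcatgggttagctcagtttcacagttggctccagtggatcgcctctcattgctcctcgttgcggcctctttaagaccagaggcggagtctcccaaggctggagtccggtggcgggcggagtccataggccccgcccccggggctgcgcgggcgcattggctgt
Slc25a1: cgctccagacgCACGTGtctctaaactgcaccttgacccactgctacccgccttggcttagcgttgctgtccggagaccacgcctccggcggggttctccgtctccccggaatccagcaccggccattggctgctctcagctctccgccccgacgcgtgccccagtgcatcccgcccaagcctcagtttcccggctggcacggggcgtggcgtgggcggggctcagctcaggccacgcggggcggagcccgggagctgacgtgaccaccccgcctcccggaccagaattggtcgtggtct
Slc25a20: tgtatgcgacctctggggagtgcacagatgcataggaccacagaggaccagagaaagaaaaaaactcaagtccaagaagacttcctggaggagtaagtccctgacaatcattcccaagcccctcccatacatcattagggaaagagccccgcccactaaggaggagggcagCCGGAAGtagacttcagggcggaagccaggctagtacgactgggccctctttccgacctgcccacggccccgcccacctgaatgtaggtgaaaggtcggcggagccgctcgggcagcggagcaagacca
Slc25a12: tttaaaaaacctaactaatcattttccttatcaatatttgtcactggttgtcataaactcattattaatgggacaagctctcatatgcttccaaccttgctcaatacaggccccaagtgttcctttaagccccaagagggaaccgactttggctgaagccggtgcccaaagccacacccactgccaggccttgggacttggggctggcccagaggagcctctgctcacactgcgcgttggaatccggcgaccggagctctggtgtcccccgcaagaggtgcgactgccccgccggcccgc
The windows had a GC content of 59.7% (Slc25a10), 69.3% (Slc25a1), 58.0% (Slc25a20) and 54.3% (Slc25a12). The Slc25a10 and Slc25a12 windows held none of the 5 motifs.

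In all, 36 members had a RefSeq promoter window, 30 of them among the tested, of which 13 fell, 3 rose and 14 did not pass with LPA. Their median GC content was 59.3%, against 52.7% over all 32851 promoters of the table. On either strand, CCGGAAG was in the windows of 4 of the 13 that fell (Slc25a3, Slc25a17, Slc25a20 and Slc25a25), 0 of the 3 that rose and 2 of the 14 that did not pass (Slc25a4 and Slc25a38), against 8.86% of all promoters. CACGTG was in 2 of 13 (Slc25a1 and Slc25a33), 0 of 3 and 4 of 14 (Slc25a13, Slc25a14, Slc25a15 and Slc25a36), against 7.15%. CACCCCA, the core of a sterol regulatory element, was in 0 of 13, 1 of 3 (Slc25a24) and 1 of 14 (Slc25a36), against 7.62%. AAGGTCA, a sequence bound by oestrogen-related receptors, and GCATGCG, part of the NRF1 palindrome, were in none of the 30, against 4.72% and 3.58% of all promoters. A gene counted where any of its windows matched, and the 36 members had 46 windows. The shares over all promoters count single windows, so a gene with several windows had more room for a match. None of the 5 motifs contains another, and a match describes the window only.

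In the nucleotide and phosphate class, the ADP/ATP exchangers and phosphate carrier supply the ATP synthase with ADP and phosphate and take ATP out. The class also holds carriers of ATP-Mg and of pyrimidine nucleotides. Of its 10 members 8 were tested, and with LPA 5 fell, 1 rose and 2 did not pass, with a median change of -0.29. Slc25a5, the widespread ADP/ATP exchanger, had 11.21, 11.21 and 11.24 in LPA cultures, 11.86, 11.78 and 11.92 in HA155 cultures and 11.70, 11.72 and 11.88 in control. LPA arrays lay below all others, and the change against control was -0.54 ± 0.07 (SE; limma adjusted p = 0.000138), with -0.58 and -0.55 in its other 2 probe sets. Near-identical copies of this gene in the genome could share its signal.

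Slc25a4, the exchanger typical of heart and muscle, had 12.31, 12.26 and 12.18 with LPA, 12.34, 12.37 and 12.48 with HA155 and 12.31, 12.27 and 12.28 in control. LPA and control overlapped, with a difference of -0.04 ± 0.06 (SE; limma adjusted p = 0.729) and a 95% interval from -0.17 to 0.10. Slc25a3, the phosphate carrier, had 10.81, 10.92 and 10.82 with LPA, 11.02, 11.02 and 11.24 with HA155 and 11.03, 11.08 and 11.22 in control. Every LPA array was below every other array, with a change against control of -0.26 ± 0.08 (SE; limma adjusted p = 0.0369), a call lost in 8 of 17 alternative settings. Slc25a31, the exchanger of germ cells, was under the filter, with 3.57, 3.59 and 3.39 with LPA, 3.57, 3.57 and 3.74 with HA155 and 3.49, 3.57 and 3.61 in control.

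The carriers that exchange ATP-Mg for phosphate, and so change the size of the matrix adenine nucleotide pool, divided by member. Slc25a23 had 7.36, 7.57 and 7.45 in LPA cultures, 7.76, 7.90 and 7.76 in HA155 cultures and 7.93, 7.99 and 7.90 in control. LPA arrays were the lowest and control arrays the highest, with a change with LPA of -0.48 ± 0.07 (SE; limma adjusted p = 0.000459). Slc25a25 also fell with LPA (-0.46, limma adjusted p = 0.00101). Slc25a24 rose: it had 8.29, 8.08 and 8.52 with LPA, 7.96, 7.98 and 7.94 with HA155 and 8.05, 7.73 and 7.91 in control, a change of 0.40 ± 0.11 (SE; limma adjusted p = 0.0196). Its lowest LPA array was only just above its highest control array, and the call was lost in 4 of 17 alternative settings. The pyrimidine nucleotide carrier Slc25a33 fell (-0.32, limma adjusted p = 0.00762), while its relative Slc25a36 differed by 0.12 (limma adjusted p = 0.310).

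**Figure D2:**
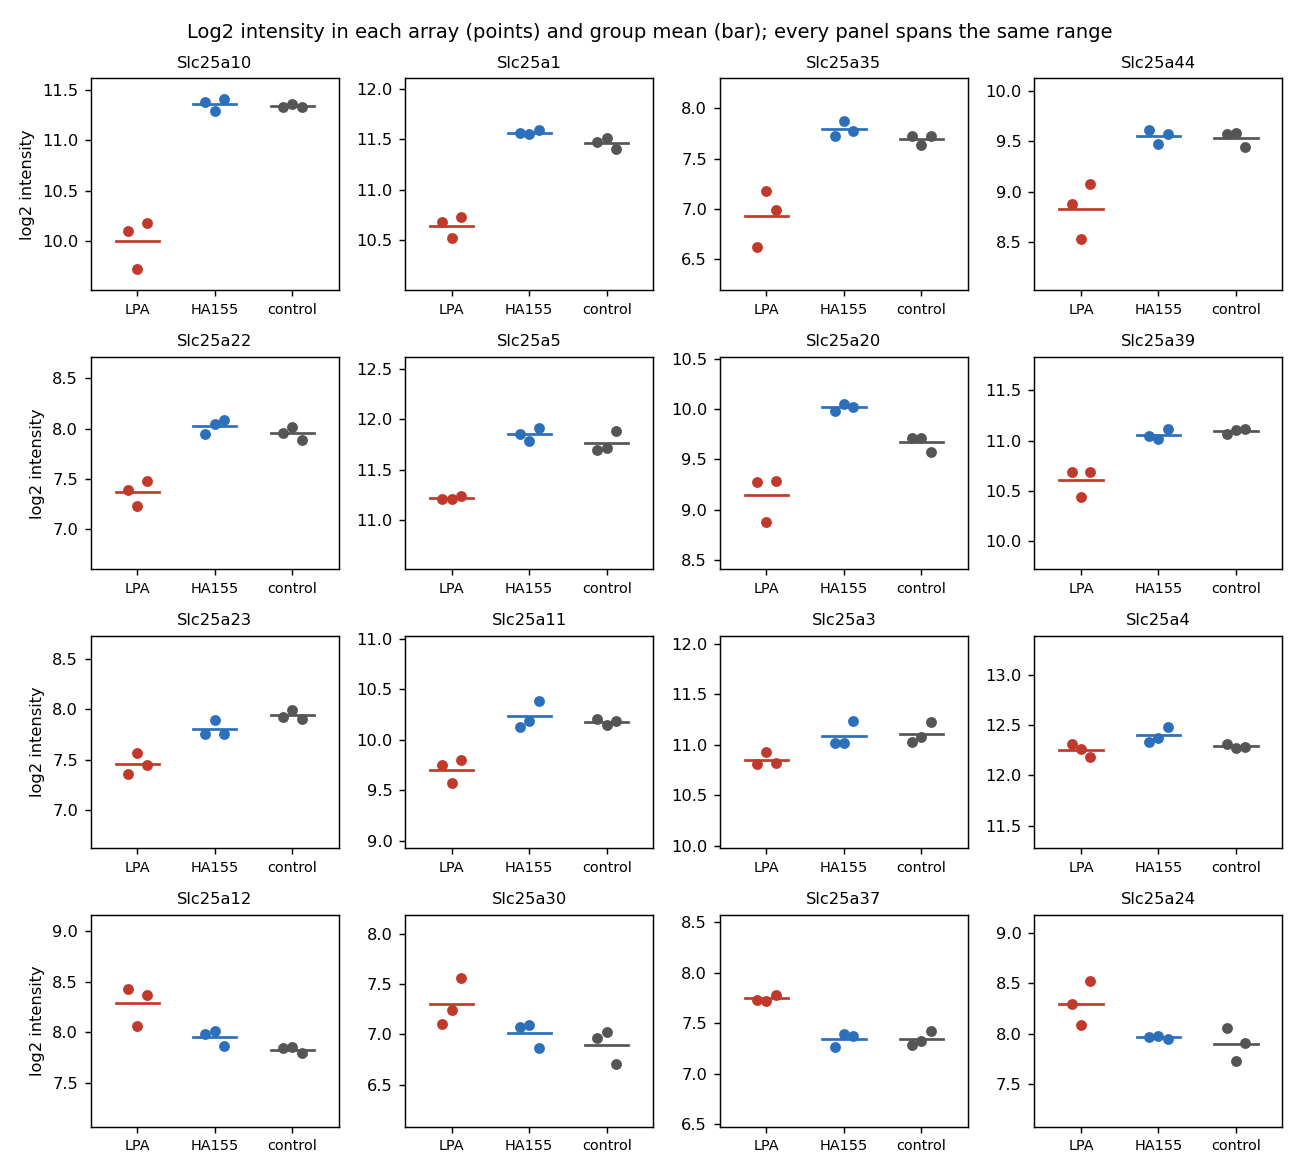
Log2 intensity (vertical axis) in each array for the tested carriers described array by array, 1 panel per gene with the same span in every panel. Points are for LPA, HA155 and control cultures from left to right, with a bar at each group's mean. Slc25a31, under the filter, is not drawn. In the Slc25a10 panel the LPA points lie between 9.72 and 10.19 and all HA155 and control points between 11.29 and 11.41.

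Among the amino acid carriers, 8 of 9 members were tested, and with LPA 2 fell, 1 rose and 5 did not pass, with a median change of -0.22. Slc25a44 imports branched-chain amino acids into mitochondria and is known from brown fat for their oxidation there. Its values were 8.87, 8.53 and 9.08 in LPA cultures, 9.61, 9.47 and 9.57 in HA155 cultures and 9.57, 9.58 and 9.44 in control. LPA arrays lay below all others, and the change against control was -0.70 ± 0.11 (SE; limma adjusted p = 0.00103). Slc25a22, a glutamate carrier, had 7.39, 7.23 and 7.48 with LPA, 7.94, 8.05 and 8.08 with HA155 and 7.95, 8.02 and 7.89 in control. Here too the LPA arrays were apart from the rest, with a change against control of -0.59 ± 0.07 (SE; limma adjusted p = 0.00018).

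Slc25a12, an exchanger of aspartate and glutamate, moved the other way. It had 8.43, 8.07 and 8.36 in LPA cultures, 7.99, 8.01 and 7.87 in HA155 cultures and 7.84, 7.85 and 7.79 in control, with every LPA array above all others and a change against control of 0.46 ± 0.09 (SE; limma adjusted p = 0.00322). Slc25a13, the second exchanger of the same pair of amino acids, differed by 0.18 (limma adjusted p = 0.0921), the glycine carrier Slc25a38 by -0.29 (0.143) and the ornithine carrier Slc25a15 by -0.28 (0.0596). The glutamate carrier Slc25a18 (-0.07) and the basic amino acid carrier Slc25a29 (-0.17) did not pass either. The ornithine carrier Slc25a2 was under the filter.

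All 10 members that carry cofactors, coenzymes or metals were tested, and 4 fell, 1 rose and 5 did not pass with LPA, with a median change of -0.19. Slc25a39, which imports glutathione, had 10.69, 10.44 and 10.69 in LPA cultures, 11.05, 11.02 and 11.11 in HA155 cultures and 11.07, 11.10 and 11.11 in control. LPA arrays lay below all others, and the change against control was -0.49 ± 0.07 (SE; limma adjusted p = 0.000619). The peroxisomal cofactor carrier Slc25a17 fell by 0.38 on the log2 scale (limma adjusted p = 0.0147), Slc25a16, linked to coenzyme A, by 0.40 (0.00503) and the NAD carrier Slc25a51 by 0.32 (0.0321). The call for Slc25a51 was lost in 8 of 17 alternative settings.

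Mitoferrin 1, the iron importer Slc25a37 known for supplying heme synthesis in red cell precursors, rose. Its values were 7.73, 7.72 and 7.78 in LPA cultures, 7.26, 7.39 and 7.38 in HA155 cultures and 7.29, 7.32 and 7.42 in control, with a change against control of 0.40 ± 0.06 (SE; limma adjusted p = 0.000706) and no overlap between LPA and the others. Mitoferrin 2, Slc25a28, the widespread form, differed by -0.09 (limma adjusted p = 0.280). Of the red cell precursor markers only Alas2 was measured by a single-gene probe set, and it was under the filter, with intensities of 36.3 to 45.7 in LPA arrays and 38.9 to 50.2 in control. The glutathione carrier Slc25a40 (0.12, limma adjusted p = 0.207) and the S-adenosylmethionine carrier Slc25a26 (-0.20, 0.262) did not pass, nor did the folate or FAD carrier Slc25a32 (0.09) and the coenzyme A carrier Slc25a42 (-0.18).

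Of the 3 carriers that resemble the uncoupling proteins 1 rose with LPA and 2 did not pass. Slc25a30 had 7.11, 7.24 and 7.56 in LPA cultures, 7.07, 7.10 and 6.87 in HA155 cultures and 6.96, 7.03 and 6.71 in control. The lowest LPA array lay only slightly above the other groups, with a change against control of 0.40 ± 0.12 (SE; limma adjusted p = 0.0323) that was lost in 7 of 17 alternative settings. Slc25a27 differed by 0.19 (limma adjusted p = 0.143) and Slc25a14 by -0.03. The remaining 9 members were left without a substrate here, and 5 of them were tested. Slc25a35 fell, with 6.62, 7.18 and 6.99 in LPA cultures, 7.73, 7.87 and 7.77 in HA155 cultures and 7.72, 7.63 and 7.72 in control. Its LPA arrays differed more among themselves than those of most carriers but all lay below the other groups, with a change against control of -0.76 ± 0.12 (SE; limma adjusted p = 0.000663). Slc25a43 (0.03), Slc25a45 (-0.12), Slc25a46 (-0.26, limma adjusted p = 0.0912) and Slc25a47 (-0.06) did not pass.

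Array by array, LPA cultures varied more than the others. The median SD of the 38 carriers was 0.13 with LPA, 0.069 with HA155 and 0.065 in control, against 0.107, 0.054 and 0.074 over all genes. Subject 8 was the lowest of the LPA arrays in 22 of 38 carriers (57.9%, against 39.1% of all genes) and in 9 of the 16 that fell. Without subject 8, 16 carriers fell and 5 rose, and over all 9 fits that leave out 1 culture 13 to 16 fell and 2 to 5 rose.

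HA155 against control gave no call: 0 of 38 carriers rose and 0 fell by limma, where 1.03% of all genes were called (0.607% rose and 0.427% fell). Before adjustment 2 carriers had a limma p below 0.05, Slc25a20 and Slc25a40, both higher with HA155, and the median change of the 38 was 0.037. Every HA155 array lay above every control array in 7 carriers (Slc25a1, Slc25a4, Slc25a12, Slc25a17, Slc25a20, Slc25a26 and Slc25a35; 18.4%, against 8.87% of all genes) and below in 1 (Slc25a23; 2.63%, against 7.9%). The 95% intervals of the HA155 changes ran from -0.30 (Slc25a38) to 0.57 (Slc25a20), or to 0.45 (Slc25a26) with Slc25a20 left out. Their median half-width was 0.18, for single genes and with no adjustment over the genes tested.

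Slc25a20 had the widest HA155 change, 0.35 (limma adjusted p = 0.227, 95% interval 0.13 to 0.57), higher in 3 of 3 cultures than in any control culture. It passed in 3 of 17 alternative settings. They were array weights (limma adjusted p = 0.0139), a fit on the HA155 and control arrays only (0.0262) and the fit without LPA subject 8 (0.0146). Slc25a40 differed by 0.16 with HA155 (limma adjusted p = 0.548). Beside these values, 1 of 6 adipocyte markers (Cidec) and 2 of 4 tested brown adipocyte markers (Cox8b and Cox7a1) rose with HA155, 1 muscle marker (Myh1) rose and 1 of 3 preadipocyte markers (Dlk1) fell. Cidea had 6.53, 6.15 and 6.49 in HA155 cultures and 4.97, 5.10 and 4.67 in control, a change of 1.48 (limma adjusted p = 0.00108 in the fit without the filter). Adipocyte sums were 30275.3 to 31495.6 in HA155 arrays and 28796.6 to 29709.9 in control, and brown adipocyte sums 1969.6 to 2116.3 and 1099.8 to 1144.3. Their part in the carrier values was not tested.

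LPA against HA155 gave 17 carriers that fell and 3 that rose, 52.6% in either direction, against 26.1% of all genes (12.4% fell and 13.7% rose). The median change was -0.21, and for the 4 metabolite carriers -0.90. Every LPA array lay below every HA155 array in 19 carriers (50.0%, against 18.2% of all genes) and above in 4 (10.5%, against 20.5%). Slc25a10 had a change of -1.36 (limma adjusted p = 3.31e-06), Slc25a1 of -0.93 (2.11e-06) and Slc25a20 of -0.87 (7.83e-05). Slc25a26 (-0.39, limma adjusted p = 0.0319) and Slc25a46 (-0.31, 0.0407) passed here but not against control. Slc25a51 (-0.27, limma adjusted p = 0.0606) and Slc25a30 (0.29, 0.105) passed against control but not here. Both comparisons use the same LPA arrays and both LPA and HA155 were set against the same control arrays, so their counts are not independent.

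Related carriers that do the same or a similar job could be set against each other within an array, which cancels any factor common to both probe sets. The 8 pairs were chosen after the values were seen, mostly for members that moved differently, so the shifts are a description and support nothing. The offset between 2 probe sets carries no meaning, only its shift between groups. Slc25a5 minus Slc25a4, the 2 ADP/ATP exchangers, averaged -1.03 ± 0.08 in LPA cultures and -0.52 ± 0.11 in control (SD, n = 3 each), a shift of -0.51. Slc25a37 minus Slc25a28, the mitoferrins, shifted by 0.50. Slc25a12 minus Slc25a13, the aspartate/glutamate exchangers, shifted by 0.28. Slc25a23 minus Slc25a24 and Slc25a25 minus Slc25a24, the ATP-Mg carriers, shifted by -0.88 and -0.86. The glutathione pair, Slc25a39 minus Slc25a40, shifted by -0.61, the glutamate pair, Slc25a22 minus Slc25a18, by -0.51 and the pyrimidine nucleotide pair, Slc25a33 minus Slc25a36, by -0.44. An exact two-sided permutation test of 3 against 3 cannot go below p = 0.1, so no shift could pass 0.05.

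**Figure D3:**
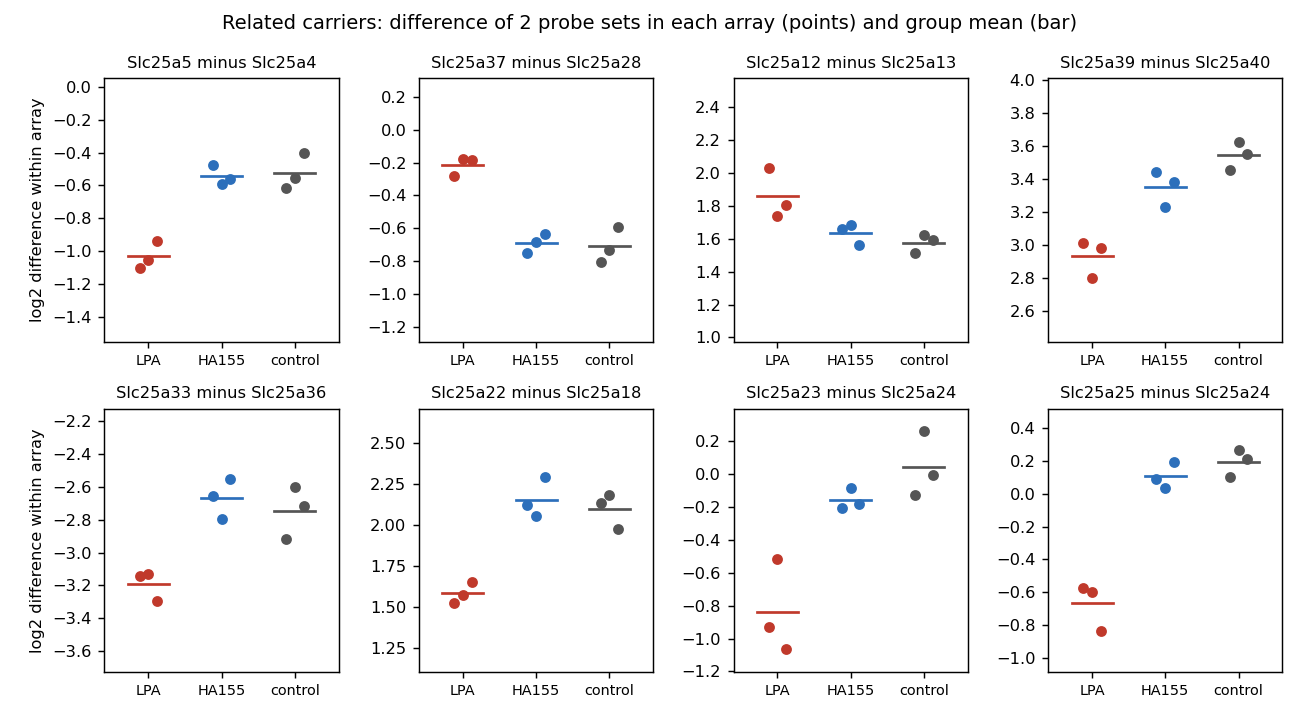
Difference in log2 intensity between 2 related carriers within each array (vertical axis), 1 panel per pair, with points for LPA, HA155 and control cultures from left to right and a bar at each group's mean. The pairs were chosen after the values were seen; the Slc25a5 minus Slc25a4 panel has means of -1.03 in LPA cultures and -0.52 in control.

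Genes whose products work beside the carriers were counted from lists chosen by function. With LPA 10.8% of all genes tested fell and 12.2% rose, shares to set beside each count against control. The ATP synthase uses the ADP and phosphate that Slc25a3, Slc25a4 and Slc25a5 bring in. Of its 16 genes 15 fell with LPA, with a median change of -0.49. They include Atp5o (-0.57, limma adjusted p = 8.52e-05), Atp5k (-0.71, 8.94e-05) and Atp5a1 (-0.52, 8.98e-05). The exception was Atpif1, the inhibitor of the enzyme, which differed by 0.08 (limma adjusted p = 0.374). Of the malate-aspartate and citrate shuttle enzymes 6 of 7 fell, with a median of -0.85. Malic enzyme Me1 (-1.25, limma adjusted p = 5.95e-07), ATP citrate lyase Acly (-0.96, 1.11e-06), which splits the citrate that Slc25a1 exports, and citrate synthase Cs (-0.89, 1.81e-05) had the smallest p. Got1 (-0.21, limma adjusted p = 0.103) did not pass.

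In branched-chain amino acid breakdown, downstream of Slc25a44, 6 of 7 genes fell, against 10.8% of all genes, with a median of -0.68. Among them were Bcat2 (-0.91, limma adjusted p = 1.09e-05), Bckdha (-0.69, 2.41e-05) and Dld (-0.71, 6.75e-05). The phosphatase Ppm1k (-0.01) did not pass. Of the carnitine shuttle enzymes Crat (-0.93, limma adjusted p = 2.05e-06) and Cpt2 (-0.67, 3.5e-05) fell. Cpt1a, a form of the outer membrane enzyme, differed by 0.13 (limma adjusted p = 0.184). Cpt1b, also listed, had no single-gene probe set. The pyruvate carrier subunit Mpc1, from another protein family, had 9.01, 9.11 and 9.03 in LPA cultures, 10.48, 10.36 and 10.56 in HA155 cultures and 9.98, 9.98 and 10.21 in control. The 3 groups did not overlap: it fell with LPA (-1.01, limma adjusted p = 7.11e-06) and rose with HA155 (0.41, 0.0393), the one partner gene that passed for HA155, and the HA155 call was lost in 9 of 17 alternative settings.

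Of the outer membrane channels that solutes cross before reaching the carriers, Vdac1 (-0.34, limma adjusted p = 0.00214) and Vdac3 (-0.35, 0.0039) fell and Vdac2 (-0.27, 0.0719) did not pass. In the import machinery that places carriers in the inner membrane 7 of 15 fell, with a median of -0.23, among them Tomm40 (-0.50, limma adjusted p = 0.000269), Timm22 (-0.43, 0.00296) and Timm8a1 (-0.38, 0.00708). Of 7 iron-sulphur and heme genes 2 fell, a small number to set beside the 10.8% of all genes. They were the first enzyme of heme synthesis Alas1 (-0.99, limma adjusted p = 3.59e-06) and the sulphur donor Nfs1 (-0.62, 0.000323). Iscu (-0.25, limma adjusted p = 0.0517) was among those that did not pass. Alas1 and Nfs1 fell where the iron carrier Slc25a37 rose. Gamt, which makes creatine, fell (-0.67, limma adjusted p = 5.86e-05), while the creatine kinases Ckm and Ckb did not pass. Gatm, the other gene of creatine synthesis, was under the filter, with every LPA array above every control array and a change of 0.36 (limma adjusted p = 0.0106 in the fit without the filter). Among relatives of the carriers in the outer membrane Mtch2 fell (-0.58, limma adjusted p = 0.000507) and Mtch1 rose (0.18, 0.0327), a call lost in 9 of 17 alternative settings. Ucp1 and Ucp3 had means over all arrays under the filter. The HA155 mean of Ucp3, 5.67, was above that level, against 5.27 with LPA and 5.47 in control. Ucp2 had no single-gene probe set.

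In LPA against HA155, where 12.4% of all genes fell, the partner genes that fell were 13 of 16 for the ATP synthase, 6 of 7 for the shuttle enzymes, 6 of 7 for branched-chain breakdown, 9 of 15 for import, 3 of 3 for the channels, 3 of 7 for iron-sulphur and heme genes, 1 of 3 for creatine genes and 2 of 3 for the carnitine shuttle enzymes. In that list Cpt1a rose (0.30, limma adjusted p = 0.00548). Mpc1 and Mtch2 fell and Mtch1 rose.

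**Figure D4:**
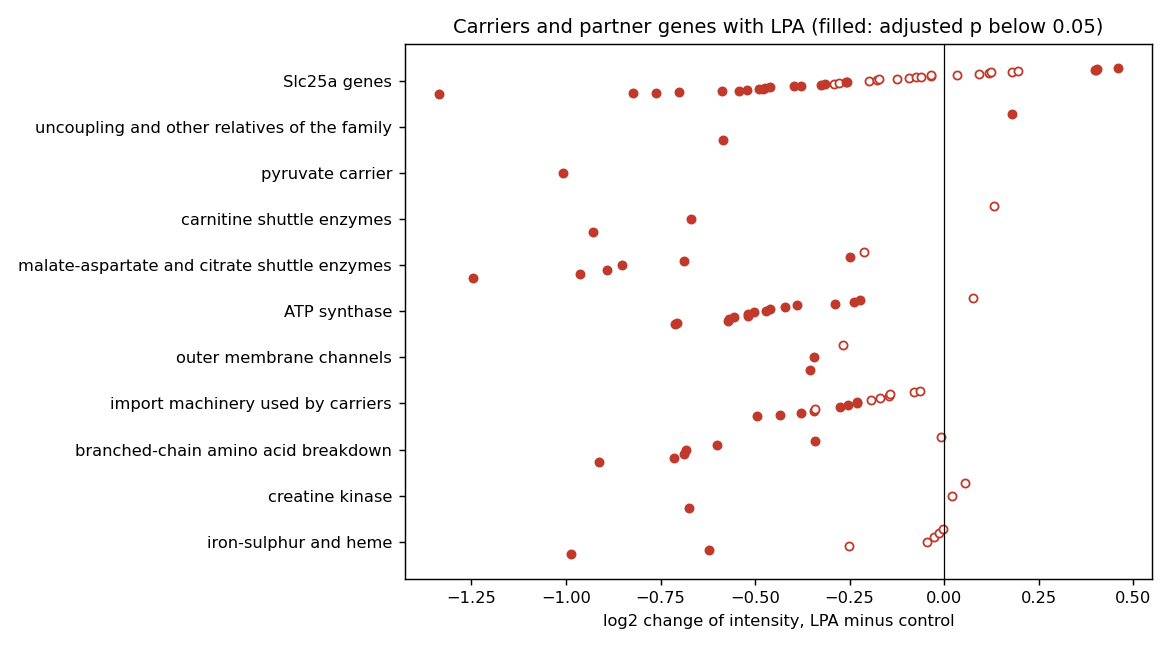
Log2 change of intensity, LPA minus control (horizontal axis), for each tested gene of the carriers and of the partner lists (rows), with filled points for an adjusted p below 0.05. The ATP synthase row has 15 of 16 genes filled on the negative side, and the carrier row has 16 filled points below 0 and 4 above.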

How the data were processed

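Biotin-labelled total RNA of 9 cultures was hybridised to Affymetrix mouse arrays. The deposited table holds 1 linear intensity per probe set and array that came from RMA, per the submitters' processing notes (version not given in the sources used here). RMA equalises the arrays' distributions and so removes a global shift. Log2 of the deposited intensity was taken without offset. Of 35432 probe sets 21706 had 1 gene symbol, 1605 had several and 12121 were not listed. Genes whose mean lay under the 40th percentile of all probe sets were dropped, leaving 13335. The model was fitted with limma 3.58.1 (R 4.3.3) to all 9 arrays in 3 groups (6 residual degrees of freedom, two-sided, Benjamini-Hochberg adjustment per comparison, 0.05). The scripts were tested on simulated data. Each p-value sets a difference against a spread between cultures, 3 per group, that limma pooled over the groups and drew towards that of all genes. That spread does not allow for the wider variation of the LPA cultures. The labels name no batch. Members and lists were chosen with earlier results of these data known. Array values are given for the 10 largest called changes with LPA and for Slc25a3, Slc25a4, Slc25a5 and Slc25a31, and partner lists by their 3 smallest p. The carriers that rose, the pairs, motifs, promoters and other partner genes were named after their values were seen. Promoters came from RefSeq, and none from chromosome 18. The 17 alternatives changed the filter, probe set choice, offset, variance model, weights, centring or groups fitted, or left out 1 culture.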

Additional observations from a re-analysis of the deposited data

How the results depend on the processing

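No called carrier reversed among 17 alternatives, 8 of settings and 9 that leave out 1 culture; differences that did not pass changed sign 4 times for LPA against control, 30 for HA155 against control and 8 for LPA against HA155. With LPA against control 15 of the 20 calls were kept in all 17; Slc25a17 (adjusted p = 0.0512 without control subject 2), Slc25a3, Slc25a24, Slc25a30 and Slc25a51 were lost in at least 1. Slc25a13 was gained without LPA subject 8, and Slc25a15 and Slc25a46 without LPA subject 9. The count that rose was 4, and 2 when only the LPA and control arrays were fitted; leaving out single cultures gave 2 to 5, the 2 coming without control subject 3 and without LPA subject 9. The count that fell was 13 to 16 with single cultures left out. With HA155 against control the count that rose was 0, and 1 (Slc25a20) with array weights and with only the HA155 and control arrays; leaving out cultures gave 0 to 1, the 1 coming without LPA subject 8, and 0 to 0 fell. With LPA against HA155, 15 of the 20 calls were kept in all 17, and Slc25a3, Slc25a12, Slc25a24, Slc25a26 and Slc25a46 were lost in at least 1. Slc25a51 was gained there with arrays centred on their medians, with array weights and without LPA subject 8, and Slc25a30 without LPA subject 7. There 3 rose, 1 without HA155 subject 6 and 1 without LPA subject 9, so 1 to 3, and 14 to 17 fell with cultures left out. No paired analysis was possible because the subject numbers differ between the groups. Detection calls were not used, so signal over background of dim carriers is not known.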
